A study of Xenopus laevis with 15 samples.

Results

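Keratins, the intermediate filament proteins of epithelial cells, were followed in clawed frog (Xenopus laevis) embryos exposed to lead(II) nitrate. Genes were taken by name from the count table: those whose symbol in the authors' deposited table starts with krt and a digit, or whose name there starts with the word keratin, upper or lower case. The rule found 53 of 37018 genes, all 53 by name and 18 of them by symbol as well. Many genes of this frog exist as a .L and a .S copy, or homeologs, one from each ancestral genome, and the 2 were counted and are treated as separate genes.

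There were 3 groups of 5 libraries: embryos in water alone (control) and embryos at a lower and a higher lead level. The levels were 210 and 630, in ng/L by the sample titles but in µg/L by the protocol, so the groups are called lead 210 and lead 630 here. Exposure started 48 h after fertilization, at about Nieuwkoop and Faber stage 29, and lasted 96 h at 21 °C, and embryos were 6 days old when sampled. Each library came from whole-body RNA of 3 pooled individuals that share an age and a rearing protocol. The labels do not say whether pools of a group came from separate clutches or dishes, so every p-value measures only the spread between these pools. Libraries carry the letters A to E and held 10824519 to 24656838 counts. A count of 3, taken as the floor, corresponded to 0.124 to 0.274 CPM (counts scaled to a common library total), and this floor covers counting error only. Since whole bodies were sequenced, fewer epithelial cells and less keratin RNA per cell cannot be told apart.

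Keratins come in 2 types, and a filament needs one chain of each: type I (acidic) and type II (neutral to basic) proteins pair and assemble into filaments that give epithelial sheets their strength. Larval frog skin makes its own set, among them the type I families known as XK81 and XK70, which are classic markers of embryonic epidermis, and adult keratins take over around metamorphosis. The pair formed by keratin 8 and keratin 18 is typical of simple, single-layered epithelia such as those of the gut, and appears early in embryos. The Ouro proteins are keratin-related antigens of the tadpole tail, known from Xenopus laevis for being recognised as foreign by adult-type immune cells when the tail is lost.

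Symbols used here are those of the RefSeq gene table (assembly Xenopus_laevis_v10.1), which held 50 of the 53 genes, and several differ from the deposited ones. Counted by name, 42 of the 53 were type I or type II keratins, 27 and 15 respectively. Keratins with no krt symbol in RefSeq were typed by their deposited name. Among these is LOC108701974, deposited as a type I keratin 19 pseudogene. Another 2 were keratin-like proteins of the KRT222 kind, and 2 were Ouro genes that the deposited table calls keratins: ouro1.L (deposited as krt2l.L) and ouro2.L (deposited as krt14.L). The remaining 7 were no keratins. They were the keratinocyte-associated protein genes krtcap2.L, krtcap3.L and c5orf15.S, the keratinocyte differentiation factor kdf1.L, a proline-rich and a keratin-associated protein, and srsf5a.L, which the deposited table names keratin 5 and RefSeq names as a splicing factor. In the other direction, 32 genes with a krt symbol in RefSeq lay outside the rule, because the deposited table gives them another name or does not list them. Of these, 28 had a control mean under 1 CPM (up to 0.805 CPM), 13 of them with no count in any library, and 4 were above it: krt20.L, krt12.2.L, krt8.2.L and krt8.2.S.

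Most members sat in keratin gene clusters. Of the 50 placed in the RefSeq table, 36 had another keratin as an immediate neighbour. The keratin 8 and keratin 18 genes krt8.1 and krt18.1 lay side by side in both subgenomes, an arrangement of a type II with a type I gene, and krt18.3 lay beside krt8.2 in both as well. Runs of a single type were also found, such as krt12.4.L, krt12.5.L and krt12.6.L, or krt78.1.L, krt62.L, krt61.L and krt60.L. Neither ouro1.L nor ouro2.L had a keratin beside it.

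A few genes supplied nearly all keratin transcripts of the 6-day embryo. Summed over the 42 keratins, the level in the control libraries A to E was 10939.8, 9756, 11232, 11121 and 11025 CPM. As a share of all counts this was 0.988% to 1.12%. The 4 leading genes held 60.3% of the control sum, the leading 6 held 76.4% and the leading 10 held 92.8%. In counts, type I and type II keratins were nearly balanced: the ratio of their sums was 0.938 ± 0.0572 in controls (SD, n = 5), 0.908 ± 0.0487 at lead 210 and 0.901 ± 0.0402 at lead 630. These are shares of counts. Transcript lengths were not given in the sources used here, so levels of different genes were not compared per length.

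The leading pair of larval epidermal type I copies was krt12.5.L (deposited as a keratin of 47 kDa) and krt12.5.S. Control libraries A to E of krt12.5.L held 2313, 2079, 2325, 2169 and 2379.7 CPM, those at lead 210 2256, 2186, 2263, 2125 and 2296 CPM and those at lead 630 2422, 1769, 2011, 2502 and 1612 CPM. The 3 groups overlapped, and the lead 630 libraries spread to both sides of the controls. The .S copy went from 1402 ± 194 CPM in controls (SD, n = 5) to 1366 ± 68.9 at lead 210 and 1352 ± 266 at lead 630.

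Their type II counterparts were krt62.S and krt62.L, deposited as genes 6 and 5 of keratin 5. Levels of krt62.S were 1755, 1461, 1665, 1814 and 1714 CPM in controls, 1684, 1616, 1698, 1899.5 and 1625 CPM at lead 210 and 1902, 1352, 1845, 2157 and 1643 CPM at lead 630. Those of krt62.L were 1077 to 1295, 1254 to 1466 and 993 to 1482 CPM. The 2 genes had the same outline, with overlapping groups and the widest spread at lead 630. Next came the type II genes krt7.L (1055 ± 105 CPM in controls) and krt7.S (692 ± 117 CPM), then krt19.L, krt8.1.S, krt8.1.L and the type I gene krt15.2.L (264 ± 26.4 CPM). At the other end, 7 members did not pass the filter on low counts, with 18 to 155 counts over all 15 libraries and no library above 0.971 CPM: krt9.1.L, krt17.L, krt34.L, krt78.2.S, LOC108701975 and the proline-rich and keratin-associated protein genes. The other 46 members, 37 of them type I or type II keratins, were tested.

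**Figure D1:**
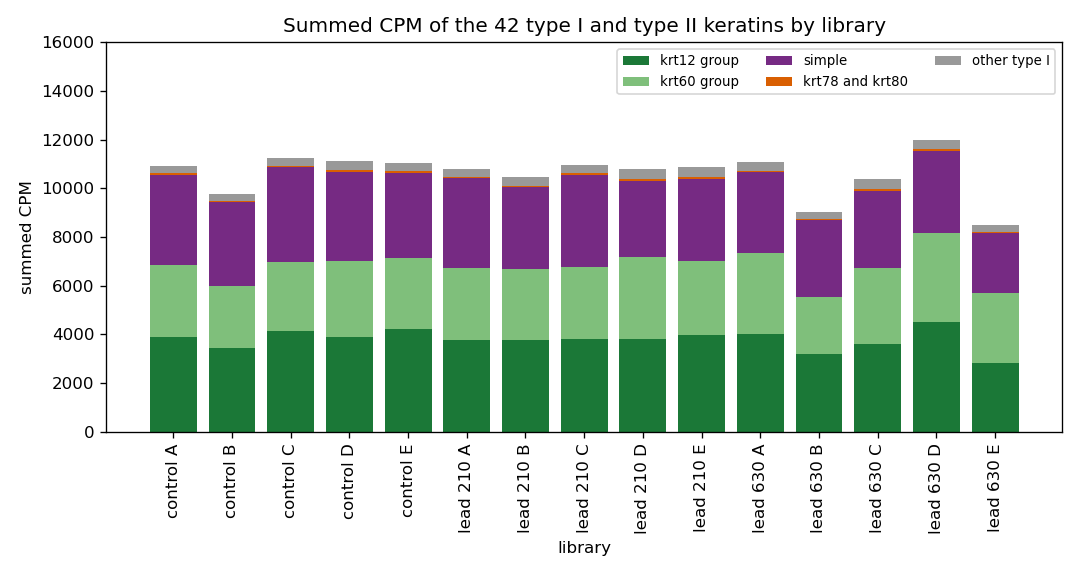
Summed CPM of the 42 type I and type II keratins in each of the 15 libraries (y axis, CPM with TMM-scaled library sizes), stacked by gene group; the x axis lists libraries A to E of control, lead 210 and lead 630. The lead 210 bars are nearly level (10449 to 10946 CPM), while lead 630 holds both the highest bar (D, 11999.6 CPM) and the lowest (E, 8505 CPM).

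Lead 630 was set against control to find keratins that differ at the higher level. Of the 46 members tested, 1 fell and none rose by the quasi-likelihood test of edgeR, with Benjamini-Hochberg adjustment over all genes and a threshold of 0.05; limma-voom gave the same counts, and DESeq2 called 1 lower and 1 higher. The background over all 27060 genes tested was 2.28% called, 1.98% higher and 0.303% lower, against 1 of 46 members (2.17%), in the lower direction. DESeq2 called 3.07% of all genes with an adjusted p at lead 630. The gene that fell was krt12.2.S, a type I keratin of the krt12 group (Entrez 446743, deposited as krt16.S). Its controls held 61.7, 61.4, 60.5, 71.4 and 62.4 CPM. At lead 630 it stood at 50.4, 51.3, 44.5, 56.6 and 40.5 CPM, and at lead 210 at 57.6, 52.7, 59.5, 53.0 and 59.5 CPM. All 5 libraries of each lead group lay below all 5 controls, while the lead groups overlapped each other. The mean went from 63.5 ± 4.49 to 48.7 ± 6.26 CPM (SD, n = 5 each). Its log2 fold change was -0.38 ± 0.08 (SE; 95% interval -0.55 to -0.22; adjusted p = 0.0113). At lead 210 the value was -0.17 ± 0.08 (adjusted p = 0.392), and lead 630 against lead 210 gave -0.22 ± 0.08 (adjusted p = 0.932). The authors' deposited table gave -0.38 (adjusted p = 0.0099) for the same gene at lead 630.

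The neighbourhood of krt12.2.S was read next. Its homeolog krt12.2.L lies outside the rule, since the deposited table calls it a fin- and gill-specific type I keratin, and is named here after its values were seen. It held 85.3, 89.1, 104, 117 and 104 CPM in controls and 68.4, 95.3, 68.5, 107 and 69.8 CPM at lead 630, with overlapping groups, a log2 fold change of -0.29 ± 0.12 and an adjusted p of 0.307. With the counts of both copies summed, krt12.2 had a log2 fold change of -0.33 and an adjusted p of 0.109, so the call rests on counting the .S copy by itself. The genes beside krt12.2.S in RefSeq are krt58.S and krt20.S, at -0.26 ± 0.14 and -0.48 ± 0.25 (adjusted p = 0.478 and 0.453). How reads common to near-identical copies were assigned is not given in the sources used here, and values of single copies are uncertain to that extent.

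**Figure D2:**
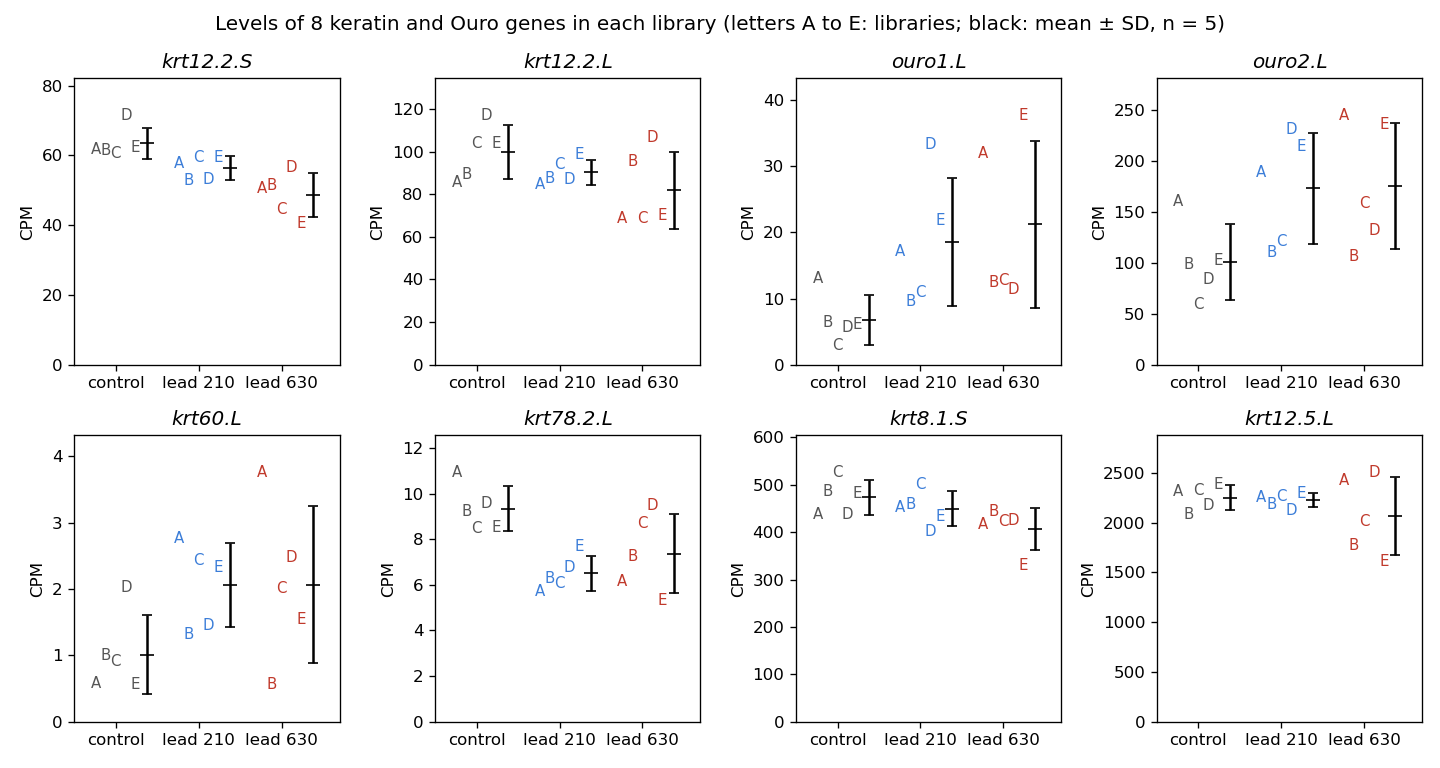
CPM of 8 keratin and Ouro genes (1 panel each, y axis from 0) in control, lead 210 and lead 630; each letter is 1 library and the black bars are mean ± SD (n = 5). In krt12.2.S every lead library lies below every control, whereas in ouro1.L and ouro2.L the lead libraries reach higher but overlap the controls.

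Groups of keratins were described by counts and medians, beside the median log2 fold change of all genes tested (-0.01 at lead 630). The krt12 group holds the type I genes krt12, krt58 and krt70. Not all of them are named as larval: krt12.6.S, the homeolog of krt12.6.L outside the rule, is deposited as an adult keratin. In the krt12 group 8 of 9 members had a negative fold change at lead 630, with a median of -0.24. The gene krt12.6.L had controls of 2.46, 2.41, 2.65, 2.10 and 2.27 CPM and lead 630 libraries of 2.01, 1.45, 2.05, 1.87 and 1.66 CPM. The groups did not overlap, but the change did not pass (-0.40 ± 0.19, adjusted p = 0.370). The exception in sign was krt70.L, chosen after its values were seen, which ranged from 1.37 to 15.9 CPM over the 15 libraries and had a fold change of 0.36 ± 0.63. Its homeolog krt70.S, the much more abundant copy, was at 134 ± 17.5 CPM in controls and 107 ± 19.1 CPM at lead 630 (-0.33 ± 0.12, adjusted p = 0.207).

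The type II genes krt60 to krt62 did not share this direction. Of 5 tested, 2 had a negative and 3 a positive fold change at lead 630, with a median of 0.08. The abundant copies krt62.S and krt62.L had values of 0.08 ± 0.10 and 0.10 ± 0.09 (adjusted p = 0.821 and 0.716). The largest estimate was that of krt60.L, a type II gene of low level: 0.572, 0.994, 0.910, 2.02 and 0.554 CPM in controls, 2.75, 1.32, 2.43, 1.45 and 2.32 CPM at lead 210 and 3.75, 0.552, 2.01, 2.48 and 1.53 CPM at lead 630. Control D lay above lead 630 B and E and about level with C, and lead 630 B was about level with the lowest control, E. The log2 fold changes were 1.05 ± 0.42 at lead 630 and 1.07 ± 0.42 at lead 210 (adjusted p = 0.268 and 0.276).

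Keratins of simple epithelia (krt7, krt8, krt18, krt19 and krt20) had a negative fold change in 9 of 11 cases at lead 630, with a median of -0.17 and no call. Their summed level was 3719, 3429, 3878, 3695 and 3511 CPM in control libraries A to E, 3682, 3356, 3777, 3153 and 3394 CPM at lead 210 and 3334, 3159, 3167, 3401 and 2467 CPM at lead 630. The highest lead 630 sum lay just under the lowest control, and the lead 210 sums overlapped both ranges. No test was made on such sums. The place of krt7.L in this group rests on its RefSeq name, since it is deposited as gene 7 of keratin 5. The krt7.L and krt7.S copies had control means of 1055 and 692 CPM, a large part of the sum.

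Within this group the type I gene krt19.L came closest to the threshold. Its controls held 560.4, 606, 675, 608 and 625 CPM and its lead 630 libraries 538, 534, 461, 558 and 457 CPM, without overlap (-0.27 ± 0.09, adjusted p = 0.139). The keratin 8 genes, which supply the type II chain, had nearly equal copies. For krt8.1.S the values were 437, 486, 526, 438 and 481 CPM in controls and 416, 444, 424, 424 and 331 CPM at lead 630 (-0.22 ± 0.08, adjusted p = 0.251), and for krt8.1.L the fold change was -0.17 ± 0.08 (adjusted p = 0.401). In both copies lead 630 E was the lowest of the 15 libraries. Their partner gene krt18.1.L was at 107 ± 8.82 CPM in controls and 95.1 ± 7.07 CPM at lead 630 (-0.17 ± 0.07, adjusted p = 0.277), while krt18.1.S, krt18.3.L and krt18.3.S had values of 0.10 ± 0.12, -0.05 ± 0.20 and 0.12 ± 0.13. The type II copies krt7.L and krt7.S were at -0.21 ± 0.10 and -0.35 ± 0.18 (adjusted p = 0.348 and 0.453).

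The type II genes krt78 and krt80 had a negative fold change in 4 of 5 tested cases at lead 630 (median -0.26), and the other type I genes in 4 of 7 (median -0.18), again with no call. Among them krt78.1.L was at -0.26 ± 0.13 and krt15.2.L at 0.16 ± 0.13 (adjusted p = 0.415 and 0.689). The homeologs krt23.L and krt23.S were at -0.28 ± 0.23 and -0.30 ± 0.20.

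**Figure D3:**
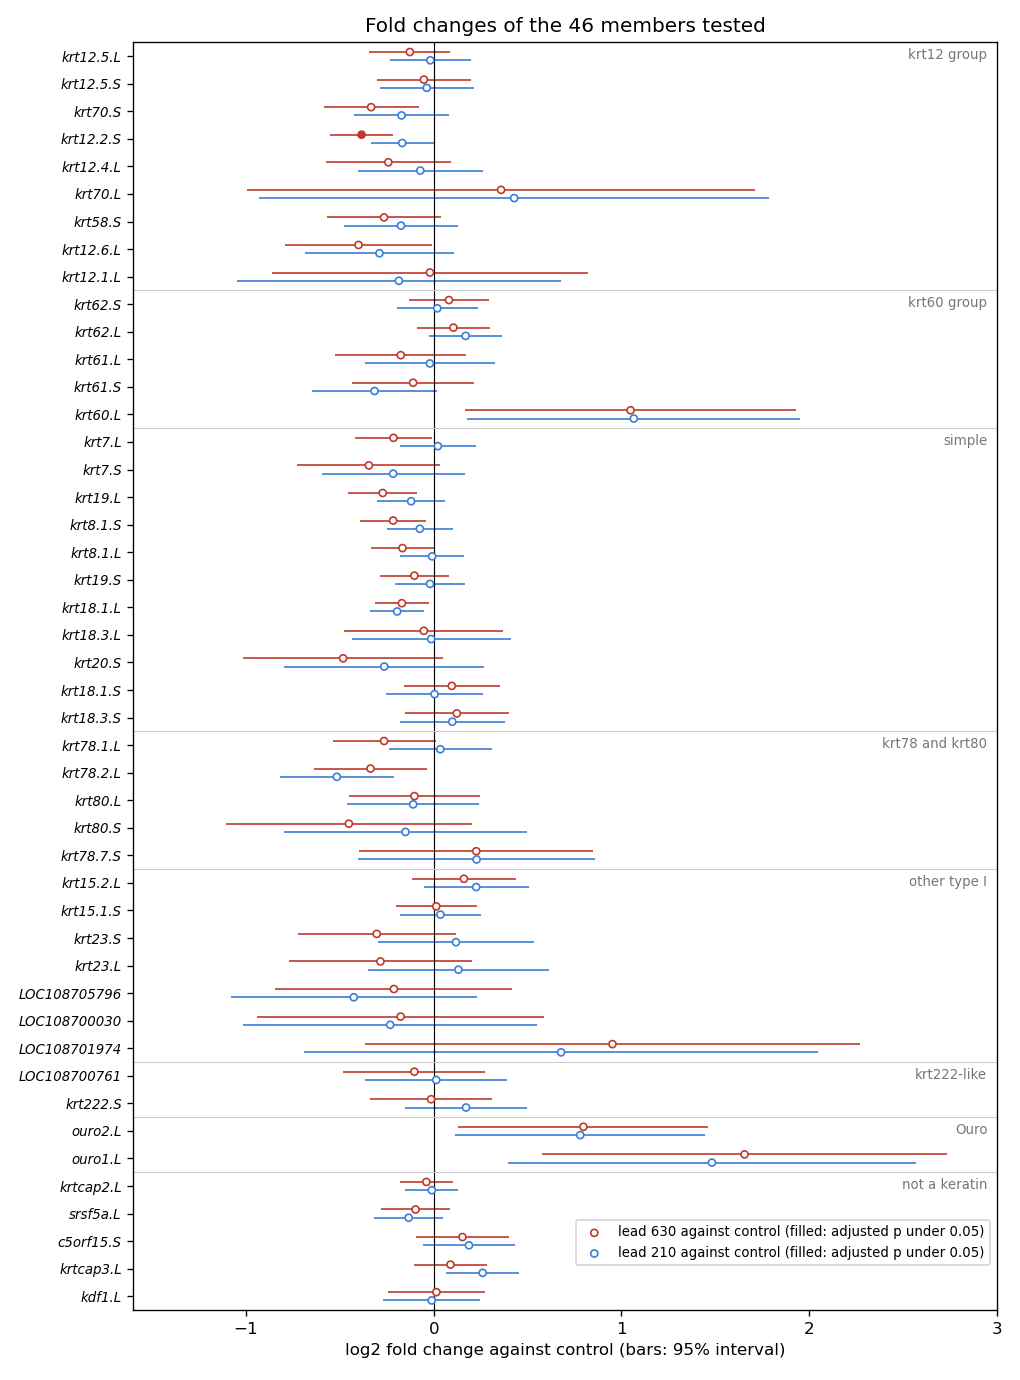
Log2 fold change against control (x axis) of the 46 members tested, grouped by kind (y axis, within groups from high to low control level); red circles are lead 630, blue circles lead 210, bars are 95% intervals from the edgeR fit and filled circles have an adjusted p under 0.05. The only filled circle is krt12.2.S at lead 630 (-0.38), and the circles farthest to the right belong to ouro1.L (1.66 and 1.48).

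Over all 37 keratins tested, 27 had a negative fold change at lead 630, against 51.3% of all genes, and the median was -0.17. Part of this lean moved with single libraries. Lead 630 E held the lowest level of the 15 libraries for 18 of the 37 keratins (48.6%), while it was lowest for 7.75% of all genes tested. The next libraries were lead 630 B with 5 and control B with 4. Without lead 630 E the count of negative fold changes was 25 and the median -0.13. The shift in the median was not particular to this library. Leaving out control C also gave -0.13, with 27 negative values, and leaving out lead 630 D gave -0.20, with 26. The keratin sum was 11073, 9009.6, 10366, 11999.6 and 8505 CPM in lead 630 libraries A to E, so that D was the highest and E the lowest of all 15. Among keratins with at least 1 CPM, the median coefficient of variation was 13.1% in controls, 13.2% at lead 210 and 16.9% at lead 630, against 12.3% in controls and 12.9% at lead 630 over all genes.

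The call of krt12.2.S did not rest on that library: without lead 630 E its log2 fold change was -0.32 (adjusted p = 0.0274). For krt19.L, krt8.1.S and krt7.L the values without it were -0.24, -0.15 and -0.13 (adjusted p = 0.277, 0.456 and 0.589).

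**Figure D4:**
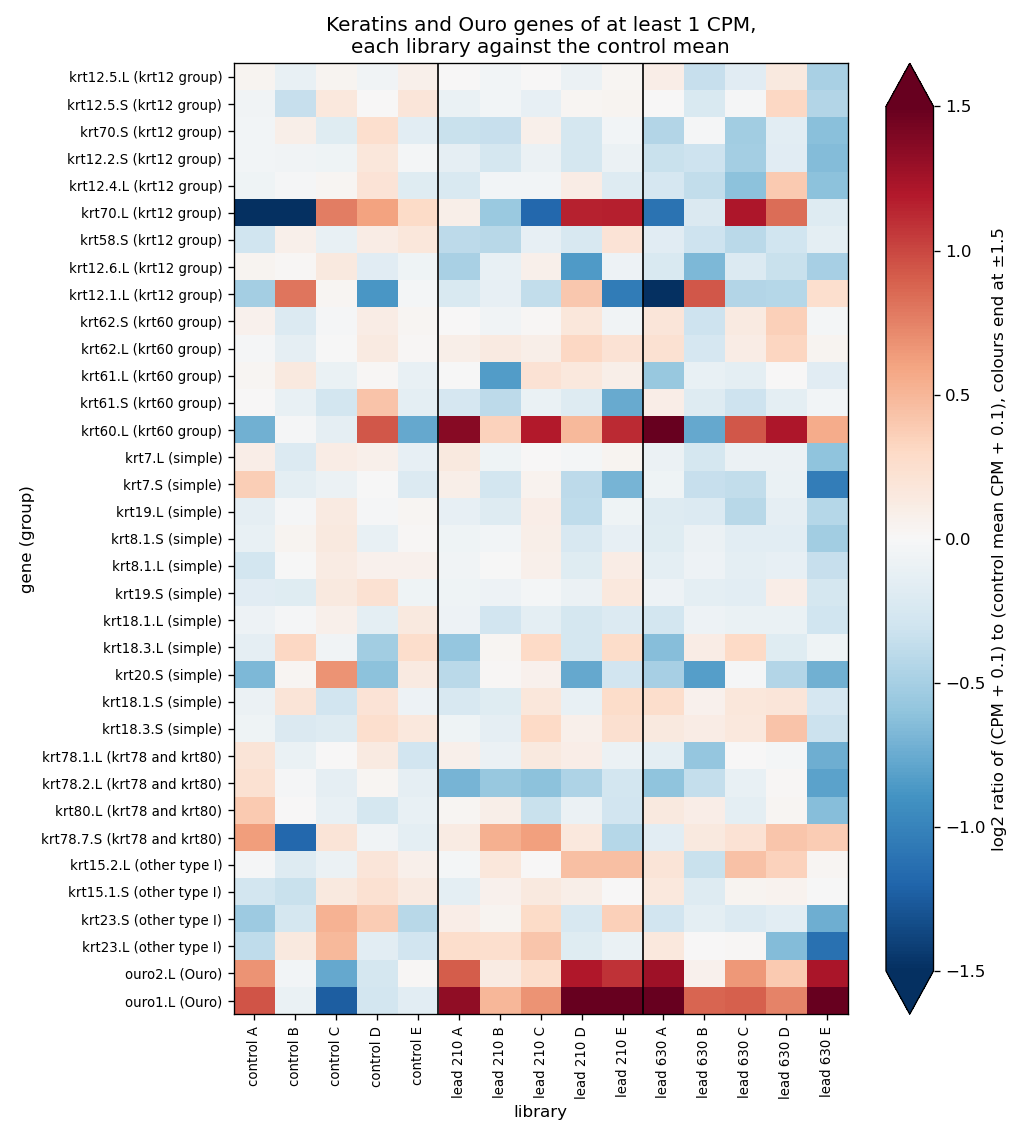
Log2 ratio of each library to the control mean, with 0.1 CPM added to both (colour; red higher, blue lower, scale ending at ±1.5), for the keratins and Ouro genes with at least 1 CPM (y axis, by group) in the 15 libraries (x axis). The lead 630 E column is blue for most keratins and dark red for both Ouro genes, and the krt70.L row changes colour within every group.

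Counting without adjustment, 8 members had p under 0.05 and a lower level at lead 630 (17.4%, against 4.62% of all genes), and 3 had a higher level (6.52%, against 8.32%). Those lower were krt12.2.S, krt12.6.L, krt18.1.L, krt19.L, krt7.L, krt70.S, krt78.2.L and krt8.1.S, and those higher were krt60.L, ouro1.L and ouro2.L. With lead 630 E left out, only krt12.2.S, krt19.L and krt70.S of those lower stayed under this unadjusted threshold. Of those higher, krt60.L and ouro1.L stayed under it and ouro2.L did not. The share of 17.4% was therefore not kept without lead 630 E. No such count is given here with any other library left out, so this does not set lead 630 E apart. Groups that did not overlap were found for krt12.2.S, krt12.6.L and krt19.L, all lower, which is 6.52% of the members against a background of 0.983%. No member was higher without overlap, against 2.86% of all genes. The intervals bound the size of most changes: for 22 of the 37 keratins the 95% interval lay within a 1.5-fold change in either direction, and for 32 within a 2-fold change.

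The largest positive estimate of any member was that of an Ouro gene. For ouro1.L (Entrez 100310817), controls held 13.0, 6.32, 2.81, 5.59 and 6.04 CPM. Lead 210 libraries held 17.2, 9.59, 10.8, 33.4 and 21.8 CPM and lead 630 libraries 31.9, 12.4, 12.7, 11.4 and 37.7 CPM. Control A lay among the lead libraries, and otherwise every lead library was above every control. The log2 fold change was 1.66 ± 0.50 at lead 630 (95% interval 0.58 to 2.74; adjusted p = 0.140) and 1.48 ± 0.50 at lead 210 (adjusted p = 0.214), and neither passed. Its call depended on the test: DESeq2 called it at lead 630 (adjusted p = 0.029), and the authors' deposited table gives 1.65 (adjusted p = 0.00152) at lead 630 and 1.46 (adjusted p = 0.01) at lead 210.

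The second Ouro gene, ouro2.L (Entrez 100310818), held 160.2, 98.0, 59.3, 83.8 and 102 CPM in controls, 188, 109.8, 121, 231 and 214 CPM at lead 210 and 244, 106, 158, 132 and 236 CPM at lead 630. Its groups overlapped, with control A within the range of both lead groups. The fold changes were 0.80 ± 0.31 and 0.78 ± 0.31 (adjusted p = 0.275 and 0.298). The .S copy of ouro1, which the deposited table lists as a thread biopolymer subunit and the rule therefore misses, is named here after its values were seen. It held 198, 137, 95.1, 124 and 129.7 CPM in controls, 294, 179, 151, 394 and 253 CPM at lead 210 and 334, 133, 225, 174 and 343 CPM at lead 630, with fold changes of 0.82 ± 0.31 and 0.90 ± 0.31 (adjusted p = 0.262 and 0.228).

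The 3 Ouro genes went up and down together among pools of a group. Of these, ouro1.L and ouro1.S are copies of a pair, and how reads common to them were assigned is not given. In controls all 3 were highest in A and lowest in C, at lead 210 all were highest in D, and at lead 630 libraries A and E stood above the other 3. Lead 630 E, which was lowest for many keratins, was thus among the highest for the Ouro genes. Without it, ouro1.L had a fold change of 1.32 and ouro2.L of 0.67 (adjusted p = 0.291 and 0.461). Summing the counts of both ouro1 copies, with all libraries kept, gave log2 fold changes of 0.87 at lead 630 and 0.92 at lead 210. Neither passed (adjusted p = 0.236 and 0.213).

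At lead 210 no member passed by edgeR's quasi-likelihood test, against a background of 1.9% of genes called, 1.76% higher and 0.144% lower. Without adjustment 2 members had p under 0.05 and a lower level (krt18.1.L and krt78.2.L, 4.35% against 4.84% of all genes) and 4 a higher one (krt60.L, krtcap3.L, ouro1.L and ouro2.L, 8.7% against 8.01%). DESeq2, which called 2.92% of all genes here, called 1 member, krt78.2.L, and limma-voom none. This type II gene held 10.9, 9.23, 8.48, 9.55 and 8.53 CPM in controls and 5.73, 6.29, 6.05, 6.77 and 7.69 CPM at lead 210, without overlap, and 6.13, 7.25, 8.67, 9.49 and 5.30 CPM at lead 630, which overlapped both. Its fold change was -0.52 ± 0.14 at lead 210 (95% interval -0.82 to -0.21; adjusted p = 0.0844) and -0.34 ± 0.14 at lead 630 (adjusted p = 0.304). It passed at lead 210 when the fit held only the control and lead 210 libraries (adjusted p = 0.0314) and when lead 630 E was left out (adjusted p = 0.044).

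Only krt78.2.L and krt12.2.S had lead 210 libraries that did not overlap the controls, both lower (4.35% of members, against 1.06% of all genes), and no member was higher without overlap (2.94% of all genes). The partner gene krt18.1.L was at 93.5 ± 5.54 CPM against 107 ± 8.82 CPM in controls (-0.19 ± 0.07, adjusted p = 0.207). Of the 37 keratins, 23 had a negative fold change at lead 210, with a median of -0.02, against 50.5% of all genes. The keratin sum at lead 210 was 10782, 10449, 10946, 10801 and 10867 CPM in libraries A to E. The krt12 group had 8 of 9 negative fold changes (median -0.17), the simple epithelial group 8 of 11 (median -0.02) and the krt60 group 2 of 5 (median 0.02). Both comparisons share the control libraries, so a like sign in the 2 of them is not a separate observation. The intervals at lead 210 lay within a 1.5-fold change for 23 of the 37 keratins and within a 2-fold change for 31.

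Lead 630 against lead 210 asked whether the levels differ from each other, and neither edgeR, DESeq2 nor limma-voom called a member; over all genes edgeR called none either (0.0%) and DESeq2 called 2 higher and 4 lower. Without adjustment 4 members had p under 0.05 and were lower at lead 630 (krt12.2.S, krt23.S, krt7.L and krt78.1.L, 8.7% against 2.52% of all genes) and none higher (2.14% of all genes). The groups did not overlap for krt7.L alone (2.17% of members, against 0.281% of all genes), with 1166, 1010.0, 1063, 1034 and 1084 CPM at lead 210 and 989, 877, 995, 993 and 693 CPM at lead 630 (-0.24 ± 0.10, adjusted p = 0.932). For krt78.1.L and krt23.S the fold changes were -0.30 ± 0.13 and -0.42 ± 0.20. Of the 37 keratins 26 had a negative value (48.9% of all genes), with a median of -0.07, and 26 had an interval within a 1.5-fold change.

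Copies of a pair were mostly unequal in level. The .L and .S endings are those of RefSeq: the deposited ones are reversed for krt70, and krt12.5.S is deposited as krt12.L. Of 12 pairs with both copies among the members, 11 were tested, and the .L copy held over 50% of the counts of the pair in 7. The .L share in controls was 84.2% ± 2.73 for krt18.1, 75.2% ± 2.01 for krt19, 61.8% ± 2.37 for krt12.5, 47.0% ± 2.17 for krt8.1 and 4.84% ± 3.42 for krt70 (SD, n = 5). At lead 630 both copies had the same sign of fold change in 8 of the 11 pairs. The share over all homeolog pairs was not computed, and 27 of the 37 keratins tested were negative there. This count is therefore not read as a result about the copies. The shares were compared between groups by a two-sided exact permutation test, 33 tests in all. The pair krt62 had a .L share of 41.3% ± 0.915 in controls, 43.9% ± 1.38 at lead 210 and 41.8% ± 0.845 at lead 630. All 5 lead 210 libraries lay above all 5 libraries of each other group (exact p = 0.00794 for both, the smallest that 5 against 5 can give), but with adjustment over the 33 tests p was 0.131. For the other pairs the exact p was 0.0635 or more.

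Genes that work with keratins, and genes of other intermediate filaments, were described from the same fit. Over all genes tested 2.28% passed at lead 630 and 1.9% at lead 210. Lists this short would hold few or no calls at that rate. In desmosomes, the junctions to which keratin filaments are anchored, 0 of 18 genes tested passed in either direction at either level, and the median log2 fold change was -0.07 at lead 630 and 0.05 at lead 210. None passed among 12 genes of hemidesmosomes and basement membrane (medians 0.02 and 0.14) or 27 genes of other intermediate filaments (-0.06 and -0.07). The same held for 27 genes of epidermal transcription factors (-0.14 and 0.01) and 6 of transglutaminases, a family of protein cross-linking enzymes (-0.09 and 0.02). The lowest adjusted p in these lists was 0.225 at lead 630, for the intermediate filament gene synm.S, and 0.0921 at lead 210, for the laminin gene lama3.L; both are named after their values were seen. Without adjustment 2 of these 90 genes were higher and 9 lower at lead 630 (2.22% and 10%, against 8.32% and 4.62% of all genes). At lead 210 it was 2 higher and 6 lower (2.22% and 6.67%, against 8.01% and 4.84% of all genes). The list of other intermediate filaments held 5 of the 9 lower genes at lead 630 and 5 of the 6 at lead 210. The rest were 3 epidermal transcription factor genes and 1 transglutaminase gene at lead 630, and 1 transglutaminase gene at lead 210. Among the 90 genes limma-voom called none, and DESeq2 called only lama3.L at lead 210.

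Markers of the cell types in a whole embryo were read beside the keratins. No gene of these lists was at 0 in all libraries. Lists of this size would hold few or no calls at the rate of all genes (2.28% at lead 630, 1.9% at lead 210). No marker passed among 7 genes of basal epidermis, 6 of goblet cells, 10 of ionocytes, 11 of multiciliated cells, 4 of notochord, 8 of skeletal muscle and 7 of neurons. All basal epidermis genes are also in a list above: tp63 among the transcription factors, and itga6, itgb4 and col17a1 among the hemidesmosome genes. Over all 65 markers tested, 3 were higher and 6 lower at lead 630 by unadjusted p under 0.05 (4.62% and 9.23%, against 8.32% and 4.62% of all genes), and 6 higher and 7 lower at lead 210 (9.23% and 10.8%, against 8.01% and 4.84%). At lead 210 DESeq2 called 6 of them (9.23%, against 2.92% of all genes): the goblet cell gene otogl.L, the muscle gene ckm.S, the cilium gene dnah9.S and the gut genes cdh17.L, cdx1.S and anpep.L. Genes with an unadjusted edgeR p under 0.05 at lead 210 were all lower in the goblet (2), muscle (1), multiciliated (3) and neuron (1) lists. Those of the gut (5) and ionocyte (1) lists were all higher. At lead 630 DESeq2 called only cdh17.L (1.54%, against 3.07% of all genes), and limma-voom called only cdh17.L at each level. Of 12 gut epithelium genes 3 were higher at lead 630 and 5 at lead 210 by unadjusted p, and none lower, with median log2 fold changes of 0.24 and 0.30. By edgeR's adjusted p 1 of the 12 rose, at both levels (background 1.98% and 1.76% higher): the intestinal cadherin gene cdh17.L, from 22.4 ± 5.15 CPM to 39.0 ± 5.86 at lead 210 and 36.0 ± 6.41 at lead 630 (0.79 ± 0.15 and 0.67 ± 0.15, adjusted p = 0.00969 and 0.0266). Summed CPM of the 13 gut genes was 1158 to 1862 in controls, 1737 to 2207 at lead 210 and 1439.8 to 1990.2 at lead 630. In the library with the low keratins, lead 630 E, the goblet cell sum was 344 CPM (controls 479 to 519), the ionocyte sum 174 CPM (controls 201 to 247), the desmosome sum 1180.1 CPM (controls 1341 to 1465) and the sum of epidermal transcription factors 358 CPM (controls 428 to 492). Each of these 4 was the lowest of the 15 libraries, as was its notochord sum of 10.3 CPM (controls 11.9 to 15.8), while its skeletal muscle sum, 27442 CPM, was the highest (controls 21896 to 24703). Its sums for transglutaminases and multiciliated cells lay below the control range without being the lowest. Its sums for basal epidermis (858 CPM, controls 812 to 1064), hemidesmosomes and basement membrane (1247 CPM, controls 1158 to 1441), gut epithelium, neurons and other intermediate filaments lay inside the control range. The basal epidermis and hemidesmosome sums share genes and are not separate observations. Low sums were not confined to lead 630 E. Goblet cell sums were 344 to 470 CPM at lead 630, all below the controls, and 465 to 511 CPM at lead 210. Multiciliated cell sums were 60.5 to 75.7 CPM at lead 630 and 59.8 to 71.6 CPM at lead 210 (controls 67.5 to 88.1). Lead 630 B lay below the control range for ionocytes (185 CPM), desmosomes (1300 CPM) and epidermal transcription factors (381 CPM). Ionocyte sums of lead 630 A and C (278 and 316 CPM) lay above it. The part of the makeup of the pools in the keratin levels was not tested.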

How the data were processed

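Libraries were made from poly(A) RNA (250 ng of total RNA each) with a kit that keeps the strand, per the labels' protocols. Trim Galore, HISAT2, kallisto and edgeR were used, per the submitters' processing notes. The build, annotation, read counter and strand setting were not given in the sources used here. The authors deposited raw counts for 37018 genes, 3220 of them with no count. The authors also deposited 2 tables of their comparisons (28950 genes each) with log2 fold changes, log2 mean CPM, a likelihood-ratio score and p-values. By their adjusted p-values under 0.05, 1 of the 53 members is higher and 1 lower at lead 630, and 1 higher at lead 210. Over all 28950 genes the counts are 594 higher and 170 lower at lead 630, and 577 higher and 113 lower at lead 210.

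The count test was edgeR 4.0.16 (R 4.3.3): filterByExpr by group, TMM scaling (factors 0.977 to 1.03) and a robust quasi-likelihood model of group alone on the 15 libraries together, read out for each pair of groups. Benjamini-Hochberg adjustment ran over the 27060 genes that passed the filter, with calls under 0.05. CPM rest on TMM-scaled totals, and SEs on the fitted weights. The steps were tested on simulated counts. Between libraries of one group (30 pairs) chi-square per gene ranged from 4.11 to 16.3, more than sampling noise, so none was a repeat deposit.

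RefSeq matched 33597 identifiers by number. Coordinates were left out, as the counts' build is not known. Members, keratin groups, partner lists and markers were chosen with earlier results of these data known. Named genes were members called in any comparison, all krt8 and krt18 copies, the 10 members highest in controls, the 3 largest fold changes each way per comparison among members of at least 1 CPM, and list genes that passed. Other genes are named for a small count, a shared locus or a homeolog, chosen after their values were seen. Alternatives covered scaling, filters, DESeq2 1.42.0, limma-voom 3.58.1, fits on 2 groups, a replicate block, homeologs summed, and each library left out.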

Additional observations from a re-analysis of the deposited data

Results flagged for a closer look

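In 5 of the 75 sets of 5 libraries examined (25 named genes in 3 groups), 1 library lay apart from the other 4 by a gap of over 0.71 of the group's range. Chance alone marks about 5% of independent sets. These sets share libraries and include both copies of several genes, so that share cannot be used to judge the number. The gene krt12.2.S was at 71.4 CPM in control D, above 60.5 to 62.4 CPM in the other controls; without control D its log2 fold change at lead 630 was -0.34 (adjusted p = 0.036). In lead 630 E, 3 genes were low: krt8.1.L at 330.3 CPM (381 to 399 CPM in the other 4 libraries), krt8.1.S at 331 CPM (416 to 444 CPM) and krt23.S at 5.05 CPM (6.95 to 7.66 CPM). The gene krt62.S was at 1899.5 CPM in lead 210 D, above 1616 to 1698 CPM in the other lead 210 libraries.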

How the results depend on the processing

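The fall of krt12.2.S at lead 630 was called under 23 of 23 alternatives that keep its copy separate, with log2 fold changes from -0.45 to -0.32 and adjusted p up to 0.0453. With homeologs summed, 0 members were lower at lead 630. Leaving out 1 library gave 1 to 2 lower members there, the second being krt12.4.L without lead 630 D (log2 fold change -0.46, adjusted p = 0.0113). DESeq2 gave 1 higher member at lead 630, ouro1.L. At lead 210 the lower count of 0 became 1 by DESeq2, 1 with only the 2 groups compared, and 0 to 1 with a library left out (1 without lead 630 E), each time krt78.2.L. No alternative called a member between lead 630 and lead 210.

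With the replicate letter as a replicate block the log2 fold change of krt12.2.S was -0.39 (adjusted p = 0.0116) and no count of members changed; over all genes the block raised the lower calls from 82 to 142 at lead 630 and from 39 to 88 at lead 210, and DESeq2 raised them to 191 and 115. Libraries of the same letter had a median correlation of 0.119 (-0.118 to 0.311, over 0.1 in 8 of 15 pairs), against -0.016 for different letters (over 0.1 in 9 of 60). All pairs of letters A and E were over 0.1 and none of C and D. The letters were not taken to pair the pools, because that required every pair to be over 0.1, but the higher values of same-letter pairs are a hint from the data, not from the design. Not every library correlated best with its own letter: control E did so with lead 630 D. With a library left out, lower calls over all genes were 44 to 104 at lead 630 and 12 to 41 at lead 210.

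Leaving out a library gave 25 to 27 negative fold changes among the 37 keratins at lead 630, 21 to 24 at lead 210 and 21 to 29 for lead 630 against lead 210. Of 1731 values of single genes and sums under the alternatives, 4 passed the threshold only there and 1727 did not change in this respect. Sums were not tested and cannot pass it. The sign changed in 59 of the 1731, none of them past the threshold in either fit. These exclude the summed homeologs, where krt12.2 lost its call (adjusted p = 0.109). Levels per length could not be computed, since transcript lengths were not given. Genes under 1 CPM are limited by depth.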
